A study of Homo sapiens with 4 samples.

Results

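The 10 genes described here encode transcription regulators of the cell cycle: FOXM1, MYBL2, 5 members of the E2F family (E2F1, E2F2, E2F3, E2F7 and E2F8), 2 subunits of the MuvB complex (LIN9 and LIN54) and the pocket protein gene RBL1. They were taken by name from the 28729 genes of the deposited table, with earlier results of these data known. All 10 were found by their Ensembl identifiers. The table came from RNA sequencing of TU-177 cells, an established line of laryngeal squamous cell carcinoma (LSCC). The labels describe a lentivirus that carried an shRNA against SKA3 in the SKA3-KD group or a negative control in the NC group. Both groups were selected with puromycin. SKA3 encodes a subunit of the complex that holds kinetochores on spindle microtubules. Each group had 2 libraries, and the labels do not say whether these came from separate cultures, so the p-values below measure the spread between these libraries, which may be technical. The groups stand for 1 cell line, the labels name neither the shRNA sequence nor a clone, and the study also describes siRNAs and CRISPR guides against SKA3 without saying which reagent was in the sequenced cells.

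In resting and early G1 cells, RB1 and its relatives RBL1 and RBL2 (the pocket proteins) bind E2F factors and hold their target genes silent. Cyclin D and cyclin E kinases phosphorylate the pocket proteins, which frees the activators E2F1, E2F2 and E2F3 to switch on genes for DNA replication, while E2F7 and E2F8 later repress the same genes. MYBL2, which encodes B-MYB, is itself an E2F target; in S phase B-MYB joins the MuvB core, which contains LIN9 and LIN54, and FOXM1 follows in G2, so that genes of G2 and mitosis are switched on.

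Of the 10 regulators, MYBL2 and FOXM1 rose in SKA3-KD, by 1.54 and 1.34 times in mean FPKM. The other 8 did not pass the test. Among the activator E2F genes, the SKA3-KD mean was 1.04 times the NC mean for E2F1, 0.79 for E2F2 and 0.82 for E2F3. Among the atypical ones it was 1.14 for E2F7 and 0.68 for E2F8. LIN9, LIN54 and RBL1 overlapped between the groups. FPKM, the unit of the table, counts fragments relative to gene length and sequencing depth, so it allows levels to be set side by side between genes. For 7 of the 10, that length was all annotated exons of the gene merged, so such comparisons are approximate.

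Several E2F and MYB family genes are known E2F targets themselves, so the letters upstream of the regulators were searched for the sites of this network. RefSeq promoter windows, from 250 bases before to 50 bases after the annotated start, were found for 8 of the 10 genes, in 12 windows; FOXM1 and E2F8 had none. Both strands were searched for 4 forms of the E2F site (TTTCCCGC, TTTGGCGC, TTTCGCGC and TTTGCCGC), 2 forms of the CHR element that the MuvB core binds through LIN54 (TTTGAA and TTCGAA) and the CCAAT box. An E2F form stood in 4 of the 12 windows, each of another gene, and in 3.31% of the 35116 windows of all genes. The stretch just before the start is shown for these 4 genes and for MYBL2, the gene that changed most, with every match in capitals, 5′ to 3′ on the strand of the gene (GRCh38.p14):
E2F1 (chr20:33686386-33686510, minus strand): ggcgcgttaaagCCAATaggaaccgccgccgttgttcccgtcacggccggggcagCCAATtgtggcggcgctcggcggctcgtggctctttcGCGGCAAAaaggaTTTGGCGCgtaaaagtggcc
E2F2 (chr1:23531234-23531358, minus strand): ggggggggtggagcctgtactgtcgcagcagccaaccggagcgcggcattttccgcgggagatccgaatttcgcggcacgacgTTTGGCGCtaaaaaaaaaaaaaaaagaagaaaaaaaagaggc
E2F3 (chr6:20401754-20401878, plus strand): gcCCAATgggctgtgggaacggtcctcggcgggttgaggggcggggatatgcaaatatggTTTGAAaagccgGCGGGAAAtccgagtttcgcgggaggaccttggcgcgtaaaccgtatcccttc
RBL1 (chr20:37095998-37096122, minus strand): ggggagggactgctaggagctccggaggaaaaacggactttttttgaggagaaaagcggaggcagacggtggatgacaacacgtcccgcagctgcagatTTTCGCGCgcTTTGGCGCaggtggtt
MYBL2 (chr20:43666989-43667113, plus strand): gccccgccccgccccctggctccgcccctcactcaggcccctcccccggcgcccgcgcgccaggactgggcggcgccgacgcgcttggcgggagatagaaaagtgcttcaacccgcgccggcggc

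The E2F1 window held 2 E2F forms, which began 33 and 20 bases before the start, the first of them on the opposite strand. RBL1 also held 2, at 26 and 16 bases, both on its own strand. E2F2 held 1 at 42 bases and E2F3 held 1 at 53 bases on the opposite strand. CHR letters were found in 4 of the 12 windows (E2F3, LIN9 and both overlapping windows of LIN54), where 16.4% of all windows held them. CCAAT was found in 3 of the 12 (E2F1, E2F3 and E2F7), where 34.6% of all windows held it. The MYBL2 window held none of these exact letters. A search for 4 exact forms misses other forms of the E2F site, so it cannot show that this window lacks one. These matches describe sequence and were not tested as binding sites.

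Library sizes, read from the steps of the FPKM values, were between 9015056 and 11966130 reads, and the 10 regulators held between 93 and 4585 reads in a library. SKA3, the targeted gene, had an FPKM of 9.40 and 9.64 in NC libraries against 3.77 and 4.12 after knockdown, and had a log2 fold change of -1.09 with a standard error of 0.07 (limma, Benjamini-Hochberg adjusted p = 0.00806). Of 10 squamous epithelial markers, the keratins KRT5, KRT6A and KRT14 were at or near 0 in all 4 libraries, TP63 was at most 0.58 and CDH1 at most 0.447, whereas KRT17, SFN, DSP and JUP were expressed. Of these, KRT17 fell from 45.6 and 49.1 to 29.4 and 35.7 (adjusted p = 0.0396, limma), and JUP was at 74.8 and 85.0 in NC and 99.8 and 105.8 in SKA3-KD (adjusted p = 0.0508, limma). The summed FPKM of the 10 was 335.3 and 359.2 in NC and 332.6 and 363.7 in SKA3-KD. The summed FPKM of 6 fibroblast markers was 15.4 and 15.8 in NC and 8.86 and 9.56 in SKA3-KD, a difference that came mainly from DCN (8.40 and 8.36 against 2.48 and 2.35), while PDGFRB was at 2.88 and 2.46 against 3.19 and 4.13 (adjusted p = 0.165, limma) and COL1A2 and LUM were near 0. The part of these markers in the results below was not tested. The defining immune gene PTPRC and the endothelial genes VWF and CDH5 were at or near 0.

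All 10 regulators passed the filter of a mean FPKM of at least 1 and were tested by limma on log2(FPKM + 1) among 12645 genes. Fold changes below are on that scale, which makes the change of a gene with low FPKM look smaller than it was, and adjusted p-values are from limma with Benjamini-Hochberg adjustment over all genes tested. In these bulk libraries a different share of cells in a phase of the cycle and a different amount of RNA per cell cannot be told apart. Past an adjusted p of 0.05, 2 of the 10 were higher, where 6.16% of all genes tested were, and 0 were lower, where 6.11% were. At an unadjusted p under 0.05, 3 were lower (15.1% of all genes), and limma voom on reads recovered from the FPKM steps also called 3 lower (13.2% of all genes). Both SKA3-KD libraries lay above both NC libraries for 3 of the 10 (32.3% of all genes) and below them for 3 (29.2%), shares that were close to those of all genes. The median log2 fold change of the 10 was -0.01, against 0.01 over all genes tested.

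**Figure D1:**
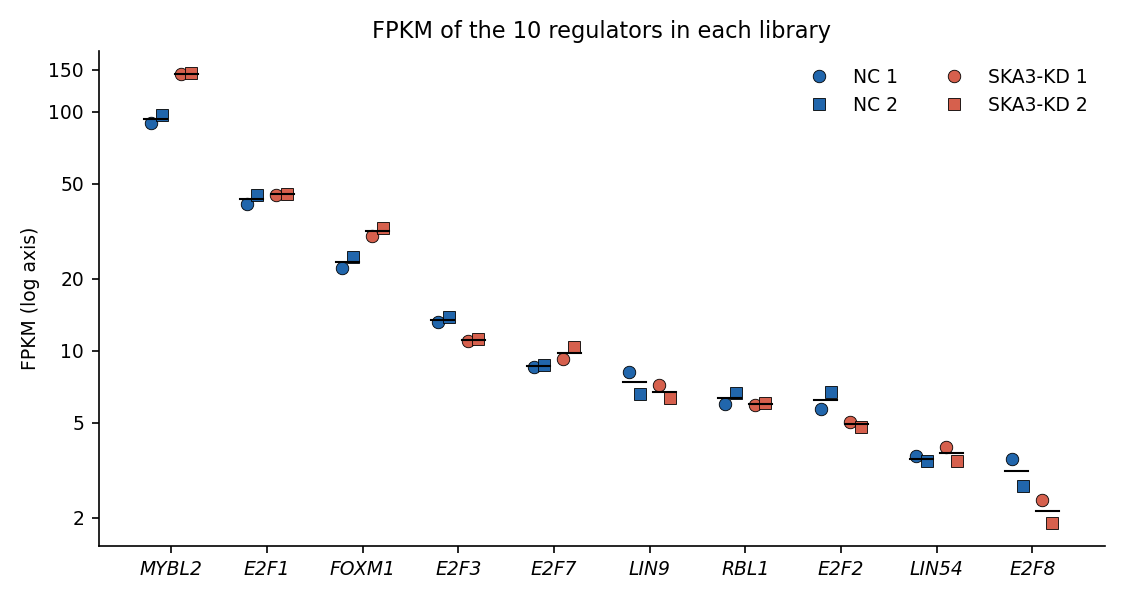
FPKM (log axis) of the 10 regulators, ordered by NC mean, in each of the 4 libraries; blue symbols are NC, red symbols SKA3-KD, circles replicate 1, squares replicate 2, and lines the mean of each group. MYBL2 lies at 90.0 and 97.4 in NC and at 143.6 and 145.0 in SKA3-KD, while E2F8 lies between 1.90 and 3.53.

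MYBL2 (ENSG00000101057, chr20:43667019-43716496, plus strand of GRCh38) had the highest level of the 10. Its FPKM was 90.0 and 97.4 in NC and 143.6 and 145.0 in SKA3-KD, replicates 1 and 2 in that order here and below, from 2889, 2355, 3919 and 4585 reads. The SKA3-KD libraries differed from each other by less than the NC libraries did, and both stood well above them. The mean rose from 93.7 ± 5.22 to 144.3 ± 0.98 (SD, n = 2 each), a log2 fold change of 0.62 (standard error 0.06, adjusted p = 0.0119, limma). The call was lost without the filter on low FPKM (adjusted p = 0.0542) and when any 1 of the 4 libraries was left out (adjusted p from 0.06 to 0.0678, log2 fold change from 0.56 to 0.67).

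FOXM1 (ENSG00000111206, chr12:2857681-2877155, minus strand) encodes the forkhead factor that acts on G2 and mitosis genes. Its FPKM was 22.2 and 24.8 in NC and 30.3 and 32.8 in SKA3-KD, from 1272, 1071, 1474 and 1853 reads. Both SKA3-KD libraries were higher than both NC libraries, and the gap between the groups was wider than the one within either. The mean rose from 23.5 ± 1.85 to 31.6 ± 1.82 (SD, n = 2 each), a log2 fold change of 0.41 (standard error 0.08, adjusted p = 0.0399, limma). The call was lost without the filter (adjusted p = 0.107), without the mean-variance trend (0.077), with quantile normalization (0.0506) and when any 1 library was left out (0.0767 to 0.16). Exons of FOXM1 share 781 bases (15.9% of its exon bases) with ITFG2 on the opposite strand, and use of strand in the counting is not stated in the sources used here; the FPKM of ITFG2 was between 1.26 and 1.63 in the 4 libraries.

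MYBL2 exceeded FOXM1 4.05 and 3.92 times in NC and 4.74 and 4.41 times in SKA3-KD, and this ratio was higher in both SKA3-KD libraries. The difference in the log2 ratio was 0.20, and an exact two-sided permutation test, the only test run on ratios, gave p = 0.333, the smallest that it can give with 2 libraries a group.

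The MuvB subunits, which bring B-MYB to its target genes, did not pass the threshold. LIN9 (ENSG00000183814, chr1:226231149-226309869, minus strand) encodes a subunit that takes part in binding B-MYB. Its FPKM was 8.15 and 6.59 in NC and 7.19 and 6.32 in SKA3-KD, so the groups overlapped (log2 fold change -0.11, standard error 0.12, adjusted p = 0.588, limma). Its direction turned to 0.03 when NC 1 was left out. LIN54 (ENSG00000189308, chr4:82909973-83012926, minus strand) encodes the subunit that touches DNA. It had an FPKM of 3.63 and 3.46 in NC and 3.96 and 3.47 in SKA3-KD, again with overlap (0.05, standard error 0.09, adjusted p = 0.75, limma), and its direction turned to -0.02 when SKA3-KD 1 was left out. Of the other core genes, LIN52 was at 4.82 and 4.51 in NC and 4.18 and 3.52 in SKA3-KD (adjusted p = 0.199, limma), and RBBP4, a histone chaperone gene, was at 18.6 and 18.0 against 15.8 and 16.3 (adjusted p = 0.125, limma). Both lay lower in both SKA3-KD libraries without passing the threshold. LIN37 was under the filter, at 0.207 or less in every library.

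The FPKM of MYBL2 relative to that of LIN9 was 11.1 and 14.8 in NC and 20.0 and 22.9 in SKA3-KD. The groups did not overlap in this ratio, and its log2 difference was 0.74. The exact two-sided permutation test again gave p = 0.333, its smallest value here.

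Among the activators, E2F1 (ENSG00000101412, chr20:33675683-33686404, minus strand) had an FPKM of 41.3 and 45.0 in NC and 44.7 and 45.4 in SKA3-KD. The groups overlapped, with means of 43.1 ± 2.63 and 45.1 ± 0.432 (SD, n = 2 each; log2 fold change 0.06, standard error 0.07, adjusted p = 0.56, limma). E2F1 was the second most abundant of the 10 regulators in both groups.

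E2F3 (ENSG00000112242, chr6:20401906-20493715, plus strand) had an FPKM of 13.2 and 13.8 in NC and 11.0 and 11.2 in SKA3-KD. Both SKA3-KD libraries were below both NC libraries, with means of 13.5 ± 0.385 and 11.1 ± 0.15 (SD, n = 2 each). The log2 fold change of -0.26 (standard error 0.06) missed the threshold (adjusted p = 0.0613, limma), and passed it when only genes averaging an FPKM of at least 5 were tested (adjusted p = 0.0399) and with limma voom (-0.29, adjusted p = 0.017). The pseudogene E2F3P2 was at 0.138 or less.

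E2F2 (ENSG00000007968, chr1:23506430-23531220, minus strand) had an FPKM of 5.70 and 6.75 in NC and 5.02 and 4.82 in SKA3-KD, from 279 to 372 reads. The groups did not overlap, and the means were 6.22 ± 0.744 and 4.92 ± 0.146 (SD, n = 2 each). Its log2 fold change of -0.28 (standard error 0.10) missed the threshold (adjusted p = 0.124, limma), and limma voom called it (-0.34, adjusted p = 0.0308).

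E2F1 made up a larger part of the summed FPKM of the 3 activators in SKA3-KD, 73.6% and 73.9%, than in NC, 68.6% and 68.7%. The sum itself was 60.2 and 65.5 in NC and 60.8 and 61.4 in SKA3-KD and overlapped. E2F1 exceeded E2F2 7.24 and 6.67 times in NC against 8.91 and 9.42 times in SKA3-KD, and E2F3 3.12 and 3.26 times against 4.06 and 4.03 times, without overlap in either ratio. The log2 differences were 0.40 and 0.34.

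E2F7 and E2F8, the atypical members that bind DNA without TFDP1 or TFDP2 as a partner, had fold changes of opposite sign, and neither passed the threshold. E2F7 (ENSG00000165891, chr12:77021247-77065580, minus strand) had an FPKM of 8.55 and 8.75 in NC and 9.26 and 10.4 in SKA3-KD. The SKA3-KD libraries were higher but spread further apart than the NC libraries (log2 fold change 0.16, standard error 0.08, adjusted p = 0.228, limma).

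E2F8 (ENSG00000129173, chr11:19224063-19241620, minus strand) had the lowest level of the 10, with an FPKM of 3.53 and 2.73 in NC and 2.37 and 1.90 in SKA3-KD, from 175, 102, 100 and 93 reads. Both SKA3-KD libraries were below both NC libraries, and NC 1 and NC 2 differed by 0.28 on the log2(FPKM + 1) scale. The log2 fold change of -0.39 (standard error 0.15) did not pass the threshold (adjusted p = 0.145, limma), while limma voom gave -0.60 (adjusted p = 0.0167).

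E2F7 exceeded E2F8 2.42 and 3.20 times in NC and 3.90 and 5.45 times in SKA3-KD, a log2 difference of 0.73. The sum of both genes was 12.1 and 11.5 in NC and 11.6 and 12.3 in SKA3-KD and overlapped, whereas the part that came from E2F7 was 70.8% and 76.2% in NC and 79.6% and 84.5% in SKA3-KD. The 5 pairs of regulators, and which gene of each stood on top, were chosen with the values of these genes known. Each of the 5 ratios was higher in both SKA3-KD libraries than in both NC libraries, which therefore is not evidence of a direction. Ratios of other pairs were not computed.

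RBL1 (ENSG00000080839, chr20:36996349-37095995, minus strand) encodes p107, the pocket protein that binds repressive E2F factors in cycling cells. Its FPKM was 6.01 and 6.67 in NC and 5.91 and 6.05 in SKA3-KD, and the groups overlapped (log2 fold change -0.07, standard error 0.08, adjusted p = 0.59, limma). The other pocket protein genes lay lower in both SKA3-KD libraries without passing the threshold. RB1, the retinoblastoma gene, was at 20.6 and 17.8 in NC and 15.1 and 16.1 in SKA3-KD (adjusted p = 0.106, limma), and RBL2, which encodes p130, was at 7.92 and 7.35 against 7.09 and 6.62 (adjusted p = 0.287, limma).

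The remaining E2F genes and their partners did not pass the threshold either. E2F4, the repressor bound by p130 and p107, was at 20.5 and 22.5 in NC and 21.2 and 22.7 in SKA3-KD. E2F6, which represses without pocket proteins, was at 10.1 and 8.80 against 9.10 and 8.98, and E2F5 was between 1.19 and 1.40 in all 4 libraries; these 3 genes overlapped between the groups. The partner TFDP1 was at 75.7 and 69.1 in NC and 82.2 and 78.6 in SKA3-KD (adjusted p = 0.208, limma). The other, TFDP2, was between 2.45 and 2.71 in the 4 libraries. The summed FPKM of E2F1 to E2F8 was 104.1 and 109.6 in NC and 104.0 and 106.8 in SKA3-KD, with overlap.

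**Figure D2:**
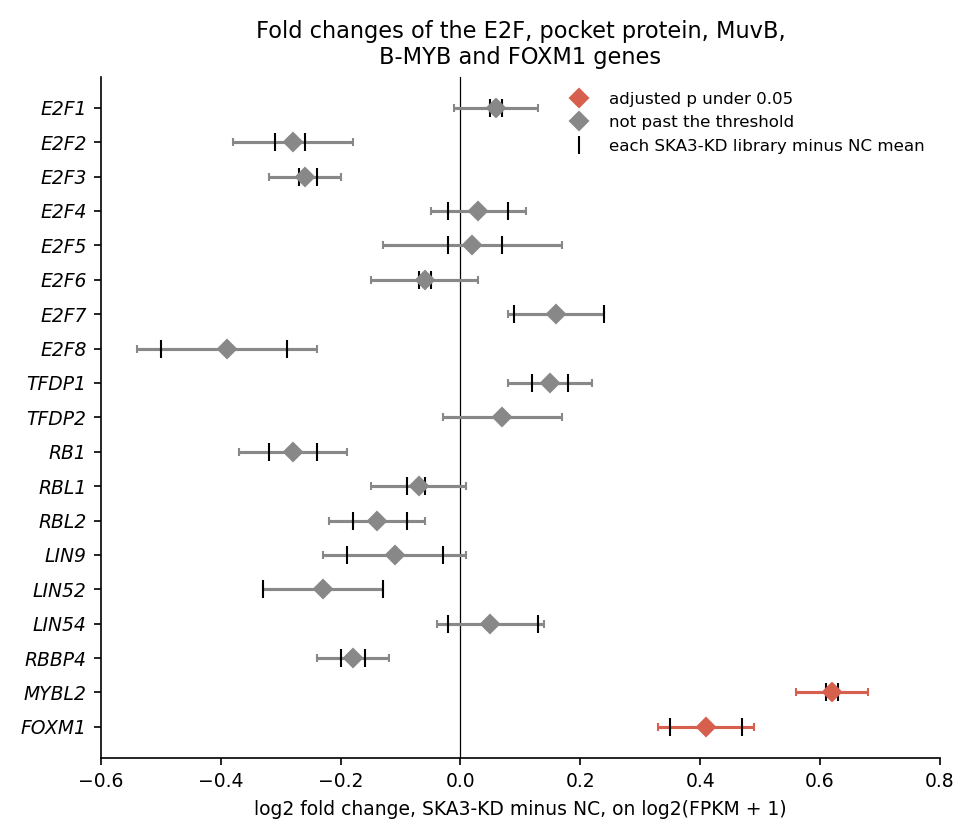
Log2 fold change (SKA3-KD minus NC on log2(FPKM + 1)) of the E2F, partner, pocket protein, MuvB, MYBL2 and FOXM1 genes; diamonds are the fitted values, bars 1 standard error, ticks the 2 SKA3-KD libraries against the NC mean, and red marks an adjusted p under 0.05. MYBL2 (0.62) and FOXM1 (0.41) stand to the right of the other 17 genes, which lie between -0.39 (E2F8) and 0.16 (E2F7).

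By level, the NC means ran from MYBL2 (93.7) through E2F1 (43.1), FOXM1 (23.5), E2F3 (13.5) and E2F7 (8.65) to LIN9 (7.37), RBL1 (6.34), E2F2 (6.22), LIN54 (3.54) and E2F8 (3.13). The NC values of LIN9, RBL1 and E2F2 overlapped, and so did those of LIN54 and E2F8, so their order within these sets was not resolved. In SKA3-KD, MYBL2 (144.3), E2F1 (45.1) and FOXM1 (31.6) were again the 3 highest and E2F8 (2.14) the lowest.

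Upstream of the E2F genes, 14 genes for the cyclins, kinases and inhibitors that act on pocket proteins were tested. Of these, 3 rose (21.4%) and 2 fell (14.3%), against 6.16% and 6.11% of all genes. The 3 that rose belong to the cyclin D kinases. CDK6 was at 24.7 in both NC libraries and at 49.4 and 50.8 in SKA3-KD (log2 fold change 0.99, adjusted p = 0.0065, limma). CCND3, a D-type cyclin gene, was at 37.9 and 40.9 in NC and 65.2 and 68.6 in SKA3-KD (0.75, adjusted p = 0.0103, limma), and CCND1, another, was at 18.1 and 18.8 against 31.4 and 28.5 (0.66, adjusted p = 0.0136, limma). The 2 that fell were the cyclin E gene CCNE1, at 14.8 and 12.8 in NC and 10.2 and 9.44 in SKA3-KD (-0.45, adjusted p = 0.0407, limma), and the CDK inhibitor gene CDKN1A, at 40.2 and 42.3 against 31.4 and 31.3 (-0.38, adjusted p = 0.0238, limma). Over all 14 genes, both SKA3-KD libraries lay above both NC libraries for 6 (32.3% of all genes) and below them for 5 (29.2%). CDK4 did not pass, with 35.0 and 36.1 in NC and 31.6 and 31.2 in SKA3-KD (adjusted p = 0.108, limma), and was named after its values were seen. The median of the 14 genes was 0.03. With any 1 library left out, 0 to 2 of the 14 were called higher and 0 lower, and without the filter or without the trend 0 were lower.

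Downstream, 39 genes of G1 and S phase that E2F factors are known to drive had a median log2 fold change of -0.04; UHRF1, also listed, was not analysed here. Of these, 2 were higher (5.13%) and 4 lower (10.3%), against 6.16% and 6.11% of all genes. RRM2, which encodes a subunit of ribonucleotide reductase, rose from 36.5 and 36.4 to 54.6 and 52.1 (0.54, adjusted p = 0.0129, limma), and MCM6, a subunit gene of the replicative helicase, from 26.9 and 24.6 to 38.4 and 35.5 (0.51, adjusted p = 0.023, limma). The genes that fell were CCNE1 and 3 genes of DNA synthesis and repair. POLE2, for a subunit of DNA polymerase epsilon, went from 5.83 and 6.27 to 4.19 and 3.73 (-0.51, adjusted p = 0.0303, limma). UNG, for uracil-DNA glycosylase, went from 49.0 and 50.0 to 38.0 and 36.8 (-0.39, adjusted p = 0.0212, limma), and FEN1, for the flap endonuclease, from 80.2 and 77.8 to 61.4 and 61.2 (-0.36, adjusted p = 0.0227, limma). Fold changes were positive for 18 of the 39 genes and negative for 21. All 6 calls were lost when any 1 library was left out, and the 4 lower ones also without the filter or without the trend.

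Genes of G2 and mitosis that B-MYB with MuvB and FOXM1 are known to bind lay higher. Of 46 such genes, 22 were higher (47.8%) and 0 lower, against 6.16% and 6.11% of all genes, and the median log2 fold change was 0.35. At an unadjusted p under 0.05, 36 were higher and 0 lower, where 16.2% and 15.1% of all genes were. Limma voom called 34 higher, including all 22, and 0 lower, where it called 12.8% and 13.2% of all genes. In 40 of the 46 both SKA3-KD libraries exceeded both NC libraries (32.3% of all genes), and in 1 both lay below them (29.2%). The list was written with the rise of mitosis genes in these libraries known, so its counts are not independent evidence of a direction. When NC 1 was left out the median was 0.40, and 0 genes were called without any 1 of the 4 libraries, where 26 to 35 were higher at an unadjusted p under 0.05 and 0 were lower, except 1 when NC 2 was left out.

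The 5 with the largest rise were PLK1, BIRC5, CCNB1, KIF2C and HMMR. PLK1, a mitotic kinase gene, was at 23.8 and 25.8 in NC and 42.4 and 42.8 in SKA3-KD (0.76, standard error 0.07, adjusted p = 0.0103, limma). CCNB1, which encodes cyclin B1, was at 88.9 and 79.3 against 134.5 and 128.8 (0.64, adjusted p = 0.015, limma). BIRC5, which encodes survivin, was at 5.65 and 4.62 against 8.96 and 9.09 (0.71, adjusted p = 0.0212, limma). The microtubule depolymerase gene KIF2C and the spindle gene HMMR had log2 fold changes of 0.62 and 0.58. The exceptions were 4 genes with a fold change below 0, named after their values were seen, none past the threshold: KIF11 (-0.18), CDK1 (-0.04), ECT2 (-0.04) and NUSAP1 (-0.02). The summed FPKM of the 46 genes was 1571.6 and 1471.5 in NC and 1975.3 and 1909.4 in SKA3-KD, without overlap.

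**Figure D3:**
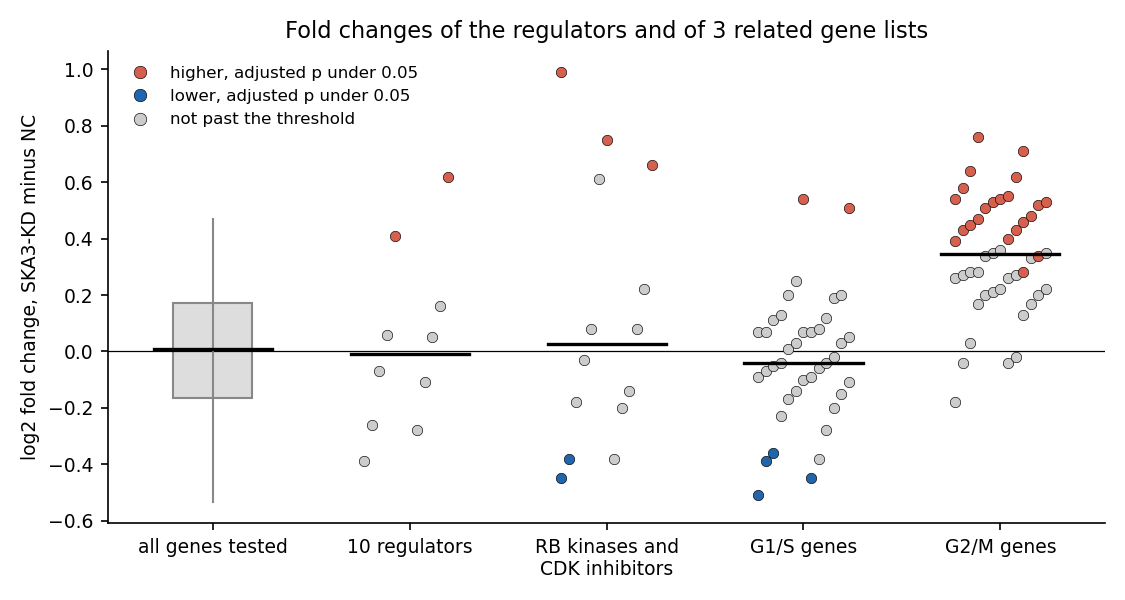
Log2 fold change (SKA3-KD minus NC on log2(FPKM + 1)) of all genes tested, the 10 regulators and 3 lists of genes around them; each point is a gene, lines are medians, the box spans the 25th to 75th percentile of all genes and its whisker the 5th to 95th. The medians are 0.01 for all genes, -0.01 for the regulators, 0.03 for RB kinases and inhibitors, -0.04 for G1/S genes and 0.35 for G2/M genes.

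The regulators differed in how firmly they were called. Over the analysis as reported and 9 alternatives with all 4 libraries, MYBL2 was called in 9 of 10 (log2 fold change 0.61 to 0.62) and FOXM1 in 7 of 10 (0.40 to 0.42). E2F3 was called lower in 2 of 10, E2F2 in 1 of 10, and E2F8 in 1 of the 9 that its level allowed.

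**Figure D4:**
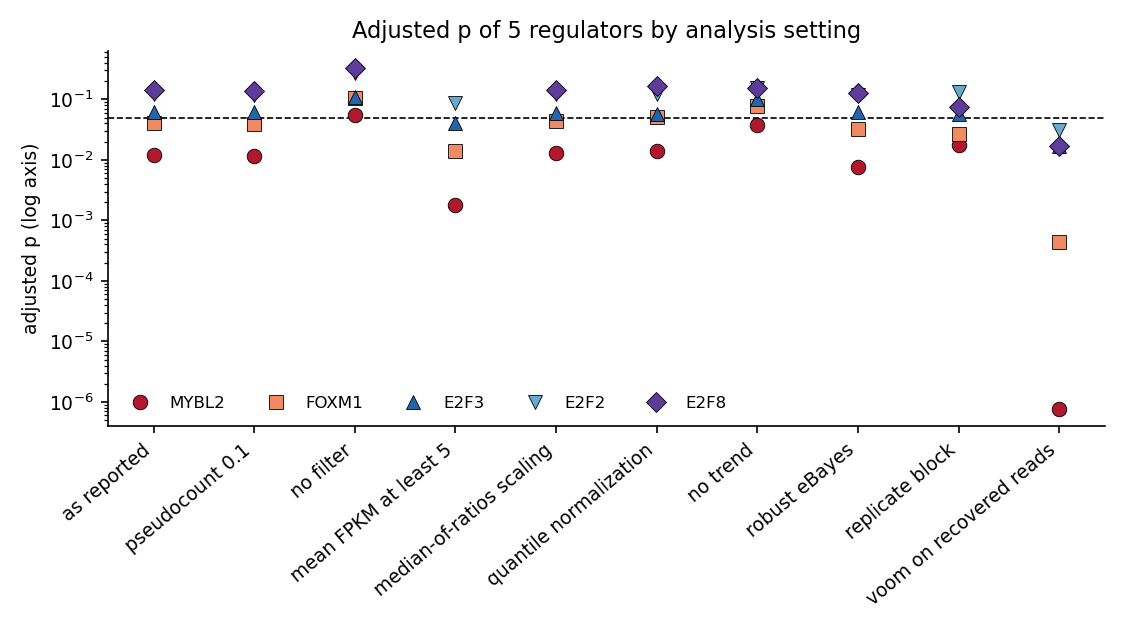
Adjusted p (log axis) of MYBL2, FOXM1, E2F3, E2F2 and E2F8 in the analysis as reported and under 9 alternatives with all 4 libraries; the dashed line is 0.05. MYBL2 lies below the line everywhere except without the filter (0.0542), and E2F2 and E2F8 lie below it with voom (0.0308 and 0.0167).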

How the data were processed

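The authors deposited FPKM values per gene for 2 NC and 2 SKA3-KD libraries of TU-177 RNA. The submitters' processing notes name Bowtie2 2.2.8, HISAT2, StringTie 1.3.1, Cuffdiff 2.1.1 and hg19, without roles. Symbols, exons and coordinates came here from GENCODE 29 (GRCh38) by Ensembl identifier. The regulators, lists, ratios and named genes were chosen with earlier results of these data known. Of the 3 long lists, called genes were named, at most the 5 largest in each direction. limma 3.58.1 (R 4.3.3; lmFit, eBayes with trend) was run on log2(FPKM + 1) over the 12645 genes whose mean FPKM was 1 or more, with Benjamini-Hochberg adjustment and a threshold of 0.05. Whole reads were recovered for 99.8% of these from the FPKM steps (tolerance 0.001), with GENCODE lengths for 61.3% and proportions between libraries for 38.5%, and voom on them was an alternative, as were another pseudocount, filters, scalings, eBayes settings, a replicate block and each library left out. FOXM1, MYBL2 and E2F3 had reads by proportions. Replicates differed beyond sampling noise (chi-square per degree of freedom 3.67 in NC, 3.65 in SKA3-KD). The steps were tested on simulated data, whose spread between replicates was set and not fitted to these libraries. There limma on log2(FPKM + 1) recovered 77 of 96 genes changed by a log2 of 1, with 7 false calls in all. It recovered 31 of 97 changed by 0.5, so changes of that size were often missed. Voom recovered 93 and 75 of the same genes, with 12 false calls.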

Additional observations from a re-analysis of the deposited data

How the results depend on the processing

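Having 2 libraries a group limits every call, and E2F8, with 93 to 175 reads a library, had the widest standard error of the regulators (0.15). SKA3 was lower and called under every alternative with all 4 libraries. Against 779 genes higher and 772 lower, omitting the filter gave 48 and 81, eBayes without a trend 312 and 381, and voom 1617 and 1669. Of the regulators, 0 were higher without the filter, 1 without the trend and 1 with quantile normalization, and 1 was lower at a mean FPKM of at least 5 and 3 with voom. FOXM1 was no longer called without the filter (0.41, adjusted p = 0.107), without the trend (0.41, 0.077) and with quantile normalization (0.40, 0.0506), nor MYBL2 without the filter (0.62, 0.0542). E2F3 became called at a mean FPKM of at least 5 (-0.26, 0.0399), and voom called E2F2 (-0.34), E2F3 (-0.29) and E2F8 (-0.60). For the RB kinases and inhibitors, the median was -0.03 without the filter, and the genes lower were 0 without the filter, 0 without the trend and 4 with voom. For G1/S genes, 1 was higher without the filter and 1 without the trend, and 0, 0 and 8 (voom) were lower. For G2/M genes, 3, 11 and 34 (voom) were higher. The cause was not tested.

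Leaving out each library in turn gave 0 to 46 genes higher, 0 to 135 lower, and 0 of the regulators higher (2 at an unadjusted p under 0.05 in each fit). The lone library was assumed to vary like the other group. FOXM1 ranged from 0.33 to 0.49, MYBL2 from 0.56 to 0.67, SKA3 from -1.14 to -1.04 (adjusted p from 0.0313 to 0.066), LIN9 from -0.24 to 0.03 and LIN54 from -0.02 to 0.13. The median of the RB kinases and inhibitors ranged from 0.00 to 0.04 with 0 to 2 higher and 0 lower, that of the G1/S genes from -0.07 to -0.01 with 0 called, and that of the G2/M genes from 0.31 to 0.40 with 0 called.

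A replicate block gave 1002 genes higher and 965 lower, and changed the call of no regulator (FOXM1 adjusted p = 0.0271, MYBL2 0.0178). Same-numbered libraries share a number only: their deviations correlated at 0.10 over 12645 genes. Of 310 recomputed values, 231 kept their direction and side of the threshold (fold changes), stayed within the replicate spread (medians) or stayed within 1.5 times the reported count (counts).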
